A study of Mus musculus with 6 samples.

Results

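Iron and heme handling was followed here through 10 genes in tumor-associated macrophages (TAMs): Hmox1, Blvrb, Ftl1, Fth1, Slc40a1, Cp, Tfrc, Slc11a1, Slc11a2 and Hfe. The genes were taken by symbol from the 56980 gene rows of the expression table, and all 10 had a row. Each passed the filter on low values, with a TPM (an abundance scaled by transcript length and library total) of at least 1 in every one of 6 libraries. The TAMs came from ID8 tumors, a transplantable mouse epithelial ovarian cancer line that had been injected into the peritoneal cavity of female C57BL/6 mice, either wild-type (WT) or lacking the complement receptor C5aR (C5aR-/-, on the C57BL/6 background). Mice were 6 to 8 weeks old and tumors were taken 2 months after injection. C5aR was absent from every host cell and not from macrophages alone, while the injected tumor cells were the same in both groups. Macrophages were sorted as live CD45+CD11b+Ly6G-F4/80+ cells, and there were 3 libraries per group. The number of mice per group that the study states is not the number of libraries, and the labels do not say how many mice each library holds.

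Macrophages take up heme and iron from aging red cells and return the iron to the blood. Heme oxygenase opens the heme ring, ferritin stores the released iron, and ferroportin is the route by which iron leaves the cell. Cells that need iron take up transferrin through the transferrin receptor instead. Part of this control acts on mRNA: when iron is scarce, iron regulatory proteins bind a short stem-loop, the iron responsive element, which blocks translation when it lies before the coding sequence and protects the mRNA when it lies after it. TPM therefore reports mRNA and says nothing of how much ferritin protein the cells held.

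The iron responsive elements are shown because they mark, among the members searched, those in which one was found before or after the coding sequence. In the longest protein-coding GENCODE transcript of each of 7 members (Blvrb, Cp, Fth1, Ftl1, Hfe, Slc11a1 and Tfrc), a search was made for C, any 5 bases, the loop CAGTGN and 5 bases pairing with the first 5 (G-U pairs allowed). It found such a stem-loop in 3 members. An element with another loop or an unpaired base in this stem would be missed. Hmox1, Slc40a1 and Slc11a2 were not searched, so nothing is said here of such elements in their transcripts. Each sequence below runs 5′ to 3′ on the mRNA sense (written with T), with the loop in capitals. The coordinates are GRCm38. The Ftl1 and Fth1 elements lie in the 5′ UTR, at chr7:45459780-45459806 (minus strand) and chr19:9982733-9982759 (plus strand).
Ftl1: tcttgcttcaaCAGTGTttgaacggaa
Fth1: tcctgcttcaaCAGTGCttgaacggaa
The Tfrc elements lie in the 3′ UTR on the plus strand, at chr16:32631220-32631246, chr16:32631599-32631625, chr16:32631664-32631690 and chr16:32631711-32631737.
Tfrc 1: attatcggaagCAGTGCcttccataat
Tfrc 2: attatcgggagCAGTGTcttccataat
Tfrc 3: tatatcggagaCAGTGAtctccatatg
Tfrc 4: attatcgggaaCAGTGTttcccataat
The ferritin pair were alike at 25 of 27 bases. Among the 4 Tfrc elements found the third was the most divergent, sharing 17 to 18 bases with the others, whereas the rest shared 22 to 25. A match to this pattern in a UTR was found in 138 of 21901 protein-coding genes (0.63%), and Tfrc was the 1 gene with 4 in its 3′ UTR. These letters describe the transcripts and were not measured in the libraries.

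The knockout was visible in the data. C5ar1, which encodes C5aR, stood at 86.5, 37.3 and 16.2 TPM in WT TAM 1, 2 and 3 and at 0.38, 0.11 and 0.05 TPM in C5aR-/- TAM 1, 2 and 3. Depth cannot be read from TPM, and 14393 to 15015 genes reached 1 TPM per library. All 10 macrophage markers were expressed (Cd68, 73.5 to 422 TPM), yet their summed level ran from 2066 to 8008 TPM in WT and from 1948 to 7558 TPM in C5aR-/- libraries. Other cells were present too. Ly6g itself was at 0 in 2 C5aR-/- libraries and at most 4.94 TPM elsewhere, but the 7 neutrophil markers summed to 628 to 2449 TPM in WT and 27.6 to 411 TPM in C5aR-/-. The 8 epithelial markers summed to 1672 to 2211 TPM over all 6 libraries. Hemoglobin mRNA, a sign of red cells and their precursors, stood out in C5aR-/- TAM 1 (26462 TPM over 4 genes, against 329 to 7239 TPM in the other libraries), while Rhag was at 0 throughout and Slc4a1 and Klf1 stayed below 1 TPM. In such bulk libraries, fewer cells of a type and less RNA per cell cannot be told apart.

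The comparison asked which iron and heme genes differ between C5aR-/- and WT TAMs. A call required an unadjusted limma p below 0.05 and at least a 2-fold difference on the log2(TPM + 1) scale. By that rule 1 member was called, Slc40a1, and it was higher in C5aR-/- TAMs. Over all 14776 tested genes 733 were called (4.96%), of which 314 were higher (2.13%) and 419 lower (2.84%). No gene passed both an adjusted p of 0.05 and 2-fold in limma with all 6 libraries (0% of tested genes; 2133 had an unadjusted p below 0.05), and the members' adjusted p ran from 0.113 to 0.984. Without C5aR-/- TAM 1 the adjusted count was 349 genes, none of them a member. Tfrc and Hfe also had an unadjusted p below 0.05 at less than 2-fold, making 3 of 10 members against 14.4% of all genes. The same 3 members had no overlap between the groups, all higher in C5aR-/-, compared with 21.3% of all genes in either direction and 8.84% in that direction. Taken 1 gene at a time, an exact permutation test over the libraries gives these 3 its smallest two-sided p, 0.1. The median difference over the members was 0.49, against -0.05 over all tested genes and 0.57 over the 10 macrophage markers.

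**Figure D1:**
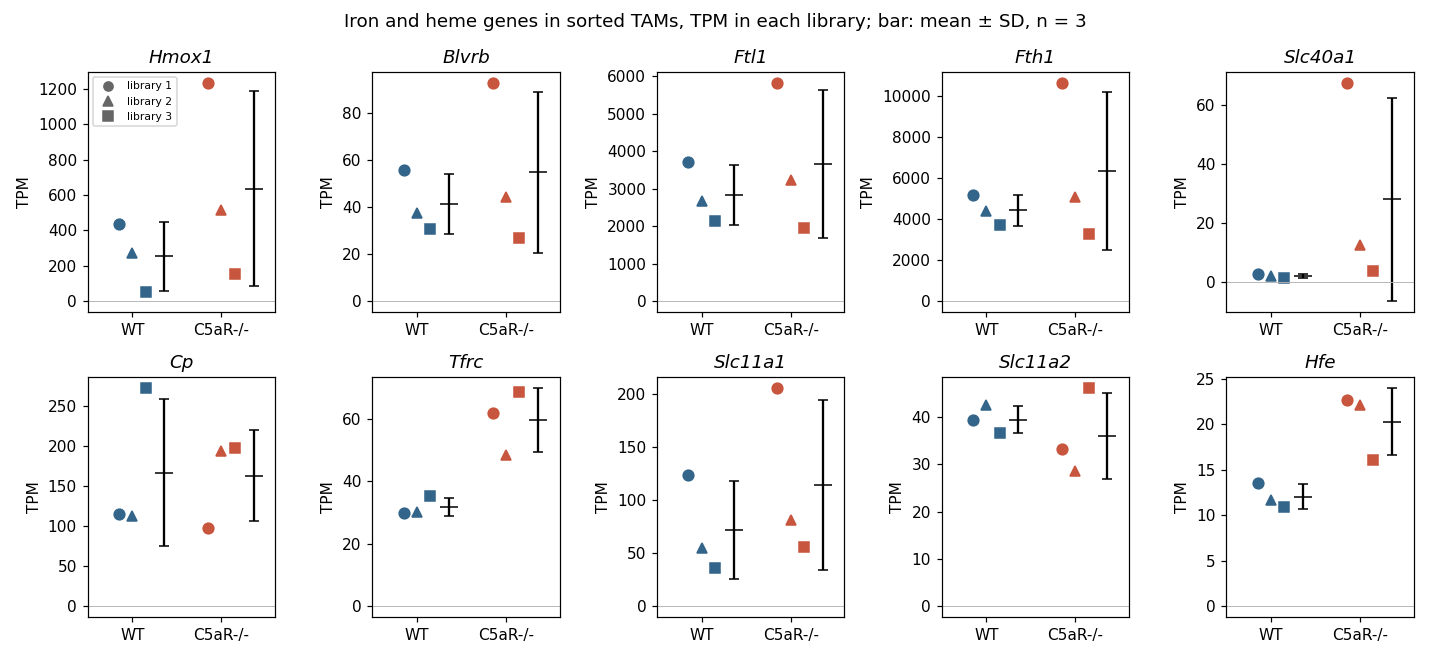
TPM of each member in each of the 6 libraries (vertical axis, linear, a scale per panel), with WT in blue and C5aR-/- in red; marker shapes number the libraries and do not pair them, and bars give the mean ± SD of 3 libraries. Slc40a1, Tfrc and Hfe are the panels in which all C5aR-/- points lie above all WT points.

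The mRNA of the iron exporter came first in size. Slc40a1 (chr1:45908068-45926523, GRCm38, minus strand) encodes ferroportin, the iron exporter of macrophages and enterocytes. It was the least abundant member in WT TAMs, at 2.71, 1.93 and 1.5 TPM, and it reached 67.4, 12.6 and 3.91 TPM in C5aR-/- TAM 1, 2 and 3. Every C5aR-/- library was thus above every WT library, but the 3 were spread over more than an order of magnitude and C5aR-/- TAM 3 lay close to WT. The difference was 2.47 on the log2(TPM + 1) scale (SE 0.88, 95% interval 0.36 to 4.57), a 5.52-fold difference on that scale (unadjusted p = 0.0277, limma adjusted p = 0.29). Without C5aR-/- TAM 1, the library rich in hemoglobin mRNA, it was 1.44 (limma unadjusted p = 0.0197, adjusted p = 0.151). The call was lost without C5aR-/- TAM 2 (limma unadjusted p = 0.0534) or without WT TAM 1, 2 or 3 (0.0522, 0.0645 and 0.0731), with differences of 2.33 to 2.62. It was also lost by construction where at least 5 TPM in 3 libraries was required, since Slc40a1 was then not tested.

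Ceruloplasmin, the copper ferroxidase that oxidizes exported iron for loading onto transferrin, did not move with ferroportin. Cp (chr3:19957054-20009145, plus strand) stood at 116, 112 and 272 TPM in WT and at 97.6, 194 and 198 TPM in C5aR-/- TAMs. The groups overlapped and the difference was 0.03 (95% interval -0.99 to 1.04, limma adjusted p = 0.984), a range wide enough to hold a 2-fold change. Hephaestin (Heph), the other ferroxidase of the export route, was at 0.05 TPM or less in all libraries.

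The mRNA of the transferrin receptor differed by less but more evenly. Tfrc (chr16:32608920-32632794, plus strand) encodes transferrin receptor 1. It was measured at 30.0, 30.2 and 35.2 TPM in WT and at 61.8, 48.2 and 68.4 TPM in C5aR-/- TAMs, so that the lowest C5aR-/- library was above the highest WT library. The difference was 0.87 (SE 0.17, 95% interval 0.47 to 1.27), or 1.83-fold (unadjusted p = 0.00147, limma adjusted p = 0.113). It stayed between 0.77 and 1.01 when any 1 library was left out, passing 2-fold without C5aR-/- TAM 2 (1.01). Its highest value was in C5aR-/- TAM 3, where hemoglobin mRNA was at 1220 TPM. The macrophage markers summed lowest in that library, but Lyz2 alone gave 1151 of the 1948 TPM. The mean log2(TPM + 1) of the same markers was lowest in WT TAM 3 instead. Of 10 genes induced by low oxygen, 4 were called higher and 6 were not called (Car9 differed by -0.38). Their sums were 1475 to 1674 TPM in WT and 2211, 3458 and 3108 TPM in C5aR-/- TAM 1, 2 and 3. The 6 proliferation markers summed to 352 to 356 TPM in WT and to 331, 422 and 553 TPM in C5aR-/- TAM 1, 2 and 3. None of these markers was called, with 5 higher and 1 lower in C5aR-/-. The part of oxygen or of proliferation in the Tfrc difference was not tested.

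Hfe (chr13:23702034-23710854, minus strand), the hemochromatosis protein that binds transferrin receptor 1, was also higher in each C5aR-/- library. Its level was 13.6, 11.7 and 10.9 TPM in WT and 22.7, 22.1 and 16.1 TPM in C5aR-/- TAMs. The difference was 0.70 (SE 0.19, 95% interval 0.24 to 1.15), or 1.62-fold (unadjusted p = 0.00892, limma adjusted p = 0.203), and it ranged from 0.61 to 0.85 without any 1 library, each time with p below 0.05.

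The sequences before the start of Tfrc and Hfe are shown because these members were higher in every C5aR-/- library with the smallest spread. They are from RefSeq promoter windows on GRCm38.p6, which held 7 of the 10 members (not Hmox1, Slc40a1 and Slc11a2). Capitals mark the motif found. In Tfrc (chr16:32608646-32608898, plus strand, 253 bases), the hypoxia response core ACGTG begins 2 bases before the first RefSeq start.
Tfrc: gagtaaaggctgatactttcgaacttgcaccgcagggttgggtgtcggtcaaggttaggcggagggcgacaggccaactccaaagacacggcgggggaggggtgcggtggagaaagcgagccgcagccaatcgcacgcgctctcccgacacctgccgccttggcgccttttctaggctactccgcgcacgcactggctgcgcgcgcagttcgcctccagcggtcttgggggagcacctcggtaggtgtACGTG
In Hfe (chr13:23710855-23711104, minus strand, 250 bases), the antioxidant response core TGACNNNGC begins 67 bases before the start.
Hfe: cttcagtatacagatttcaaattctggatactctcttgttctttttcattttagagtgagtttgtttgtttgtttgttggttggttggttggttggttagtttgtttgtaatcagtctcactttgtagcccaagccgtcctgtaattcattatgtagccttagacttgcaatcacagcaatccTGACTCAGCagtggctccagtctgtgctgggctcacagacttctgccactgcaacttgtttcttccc
Both motifs were searched on both strands of windows of 300 bases (250 before the start and 50 after). ACGTG was in 19.6% and TGACNNNGC in 12.4% of 32851 windows. The printed Tfrc site was also in the second Tfrc window, 228 bases before the start of that window. The 1 other site was ACGTG in the second window of Blvrb, 123 bases before that start. Neither letter string was in the windows of Slc11a1, Cp, Ftl1 or Fth1. A match is a description of the letters and not a measured binding site.

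The heme breakdown genes Hmox1 and Blvrb showed larger values in some C5aR-/- libraries, without a call. Hmox1 (chr8:75093621-75100589, plus strand) encodes heme oxygenase 1, the inducible enzyme that releases iron from heme. Its level fell over a wide range in both groups, from 436, 274 and 50.7 TPM in WT to 1235, 518 and 152 TPM in C5aR-/- TAM 1, 2 and 3. The groups overlapped, because C5aR-/- TAM 3 was below WT TAM 1 and 2. The difference was 1.33 (SE 0.99, 95% interval -1.05 to 3.70, limma adjusted p = 0.588), an interval that holds no difference as well as a large one. Without WT TAM 3 it was 0.41 and without C5aR-/- TAM 1 it was 0.62, whereas without C5aR-/- TAM 3 it was 2.12. Hmox1 was highest in the library with the most hemoglobin mRNA, and within each group its order over libraries was that of the macrophage markers' sum. The part of either was not tested.

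Blvrb (chr7:27447978-27466144, plus strand), biliverdin reductase B, acts downstream of heme oxygenase. It was found at 55.6, 37.7 and 30.9 TPM in WT and at 92.8, 44.4 and 27.0 TPM in C5aR-/- TAMs. The difference was 0.26 (95% interval -0.81 to 1.33, limma adjusted p = 0.83), and it turned to -0.21 without C5aR-/- TAM 1. The constitutive heme oxygenase Hmox2, biliverdin reductase A (Blvra) and the electron donor Por, the 3 other genes of heme breakdown, had differences of 0.03 to 0.10, none called.

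The ferritins were the most abundant members. Fth1 (chr19:9980598-9985098, plus strand), the heavy chain with ferroxidase activity, ranked 14 among all gene rows by mean TPM, and Ftl1 (chr7:45457944-45459884, minus strand), the light chain, ranked 24. Fth1 was at 5175, 4401 and 3683 TPM in WT and at 10622, 5087 and 3275 TPM in C5aR-/- TAMs. Ftl1 was at 3716, 2676 and 2141 TPM in WT and at 5826, 3228 and 1956 TPM in C5aR-/- TAMs. In both, C5aR-/- TAM 1 was the highest of the 6 libraries and C5aR-/- TAM 3 the lowest. The differences were 0.36 for Fth1 (95% interval -0.70 to 1.41, limma adjusted p = 0.75) and 0.26 for Ftl1 (95% interval -0.76 to 1.28, adjusted p = 0.818). Without C5aR-/- TAM 1 they were -0.10 and -0.14. Together the pair made up 0.889, 0.708 and 0.582% of all TPM in WT and 1.64, 0.832 and 0.523% in C5aR-/- TAMs. Of 14 annotated ferritin copies beside them, 2 (Ftl1-ps1 and Fth-ps2) exceeded 1 TPM in any library, at most 4.89 TPM. How reads shared with such near-identical copies were assigned is not given in the sources used here, so ferritin values are uncertain to that degree.

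The balance between the mRNAs of the chains, and between those of exporter and receptor, was compared as ratios of TPM. Ftl1 to Fth1 was 0.718, 0.608 and 0.581 in WT and 0.548, 0.635 and 0.597 in C5aR-/- TAMs. The groups overlapped, with a log2 difference of -0.10 (mean -0.66 ± 0.16 in WT and -0.76 ± 0.11 in C5aR-/-, SD, n = 3 each; exact permutation test, two-sided p = 0.5). Slc40a1 to Tfrc was 0.0904, 0.0639 and 0.0426 in WT and 1.09, 0.262 and 0.0572 in C5aR-/- TAMs. In C5aR-/- TAM 1 the exporter mRNA thus exceeded that of the receptor, whereas in C5aR-/- TAM 3 the ratio fell inside the WT range. The log2 difference was 2.02 (mean -4.00 ± 0.54 in WT and -1.98 ± 2.13 in C5aR-/-, SD, n = 3 each; exact permutation test, two-sided p = 0.3), and it was 0.97 without C5aR-/- TAM 1. With 3 libraries per group the smallest two-sided p of this test is 0.1.

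**Figure D2:**
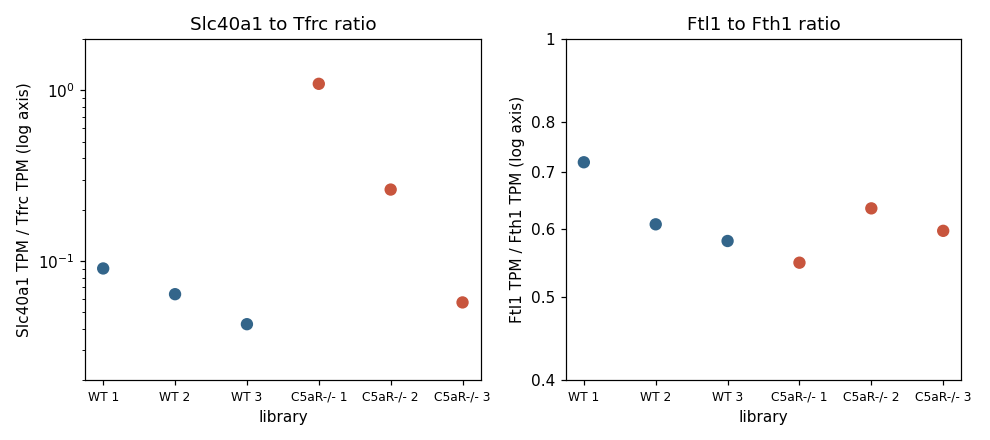
Slc40a1 to Tfrc and Ftl1 to Fth1 ratios of TPM in each library (vertical axes logarithmic; WT blue, C5aR-/- red). The Slc40a1 to Tfrc ratio spans 0.0426 to 1.09 with 1 C5aR-/- library inside the WT range, while the chain ratio stays between 0.548 and 0.718.

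The 2 metal transporters of the SLC11 family differed from each other in level and pattern. Slc11a1 (chr1:74375195-74386062, plus strand) encodes NRAMP1, which moves metal ions out of the phagosomes of macrophages. It stood at 124, 55.4 and 36.7 TPM in WT and at 206, 81.2 and 56.3 TPM in C5aR-/- TAMs, overlapping, with a difference of 0.62 (95% interval -0.78 to 2.03, limma adjusted p = 0.67). Slc11a2 (chr15:100387898-100425072, minus strand) encodes DMT1, which carries iron out of endosomes in most cells. It was at 39.3, 42.5 and 36.6 TPM in WT and at 33.3, 28.6 and 46.1 TPM in C5aR-/- TAMs, with a difference of -0.15 (95% interval -0.62 to 0.31, limma adjusted p = 0.757). Slc11a2 was the member with the narrowest range, 1.61-fold between its lowest and highest library, against 5.62-fold for Slc11a1, 24.4-fold for Hmox1 and 45.0-fold for Slc40a1.

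On the TPM scale, which is per transcript length, the members' mean levels in WT TAMs ran from Fth1 (4420 TPM) through Ftl1 (2844), Hmox1 (254), Cp (167), Slc11a1 (72.1), Blvrb (41.4), Slc11a2 (39.5), Tfrc (31.8) and Hfe (12.1) to Slc40a1 (2.05 TPM). The library ranges of Fth1 and Ftl1 overlapped, as did those of each neighbouring pair from Hmox1 to Slc11a2. Within every library, however, Fth1 was above Ftl1 (Ftl1 to Fth1 ratios of 0.548 to 0.718). The ranges of Slc11a2, Tfrc, Hfe and Slc40a1 were separate from each other. In C5aR-/- TAMs Tfrc, with a mean of 59.5 TPM, came above Blvrb (54.7) and Slc11a2 (36.0), and Slc40a1 (28.0 ± 34.4, SD) above Hfe (20.3 ± 3.68). The ranges of Tfrc and Blvrb overlapped, as did those of Slc40a1 and Hfe.

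Much of the members' variation lay between libraries of the same group. Of the 10 members, 7 were highest in C5aR-/- TAM 1 (Hmox1, Blvrb, Ftl1, Fth1, Slc40a1, Slc11a1 and Hfe), compared with 21.0% of all tested genes, and 7 of the 10 macrophage markers were highest there too. None of the macrophage markers was called. With the macrophage index (the mean log2(TPM + 1) of these 10 markers) as a covariate, Slc40a1 differed by 1.94 (limma adjusted p = 0.185), Tfrc by 0.91 (adjusted p = 0.0916), Hfe by 0.60 (adjusted p = 0.129) and Hmox1 by 0.62 (adjusted p = 0.45). With the index subtracted from every gene, which moved the median of all genes to -0.50, Slc40a1 differed by 2.02, Hmox1 by 0.88, Tfrc by 0.42 and Hfe by 0.25 (limma adjusted p = 0.972 for each), and Slc40a1 was the 1 member called.

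**Figure D3:**
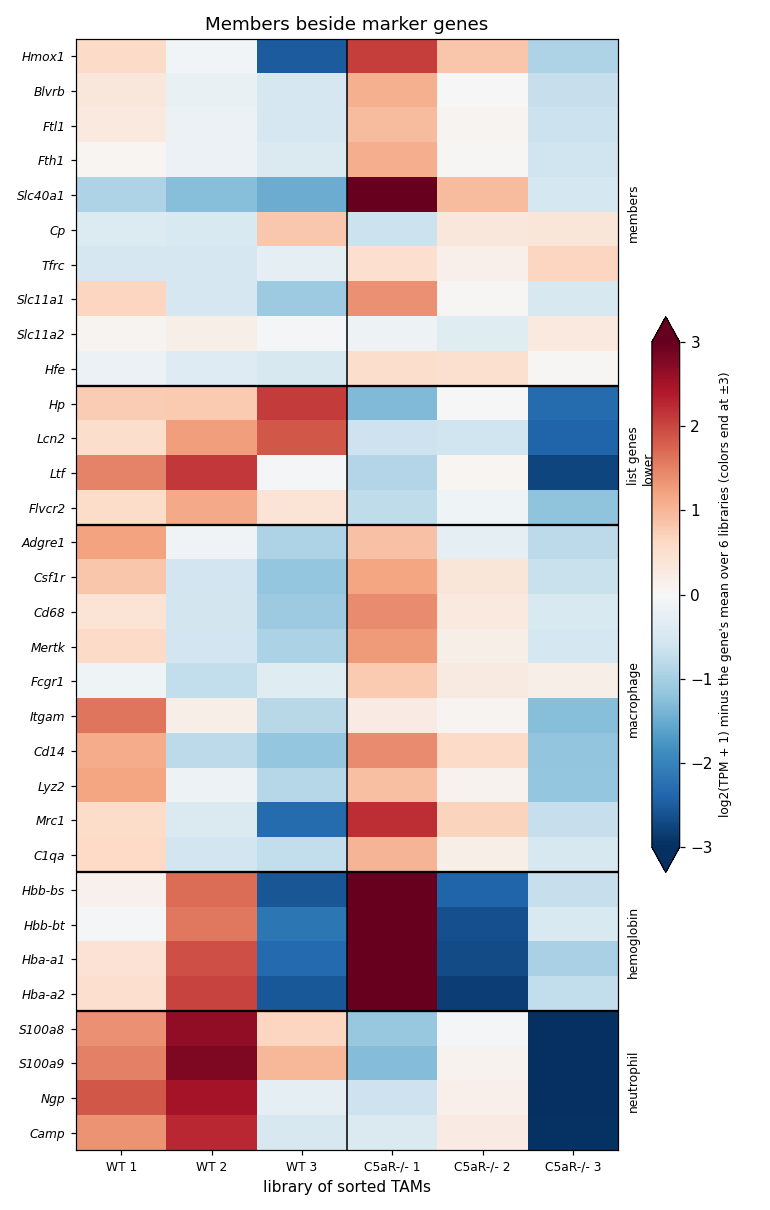
Each row is a gene and each column a library; color gives log2(TPM + 1) minus the gene's mean over the 6 libraries, ending at ±3. Hmox1, Blvrb, both ferritins, Slc40a1 and Slc11a1 are highest in C5aR-/- TAM 1, as are the hemoglobin genes and 7 of the 10 macrophage genes. Tfrc is higher in all C5aR-/- libraries, whereas Hp, Lcn2, Flvcr2 and the neutrophil genes S100a8 and S100a9 are lower in all C5aR-/- libraries.

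**Figure D4:**
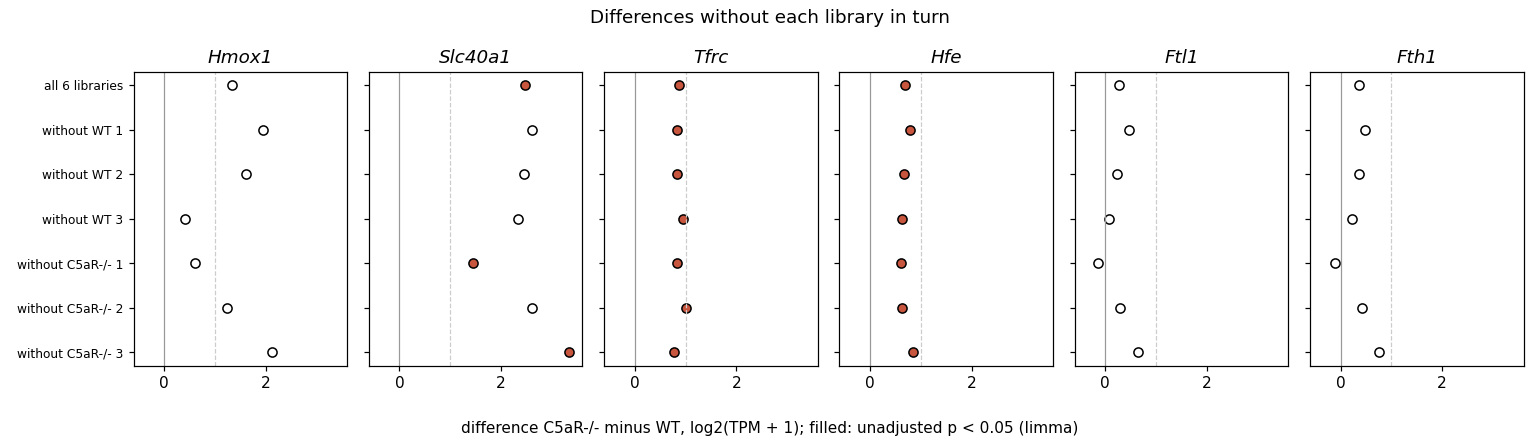
Differences between C5aR-/- and WT TAMs on the log2(TPM + 1) scale for 6 members with all 6 libraries and without each in turn; filled points have an unadjusted limma p below 0.05. Tfrc and Hfe stay near 0.87 and 0.70, Hmox1 runs from 0.41 to 2.12, and the ferritins cross 0 without C5aR-/- TAM 1.

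The rest of the pathway was described by a list of 62 other iron and heme genes in 10 roles, of which 53 passed the filter on low values. In that list 4 genes were called, all lower in C5aR-/- TAMs (2.84% of all genes were called lower). A further 6 had p below 0.05 at less than 2-fold, all lower as well. That made 10 of 53 with p below 0.05, against 14.4% of all genes in either direction. By sign alone 33 were lower and 20 higher, with a median of -0.15, against -0.05 over all tested genes. The groups did not overlap for 16 of the 53, of which 15 were lower and 1 higher in C5aR-/-. Over all 14776 tested genes the groups did not overlap for 3151 (21.3%). Of those, 1306 were higher in C5aR-/- (8.84% of tested genes) and the rest were lower. The lowest adjusted p among the 4 called genes was 0.156 (Lcn2).

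The 4 called genes encode a hemoglobin-binding protein, a siderophore-binding protein, an iron-binding protein and a membrane transporter. Hp, haptoglobin, the plasma protein that captures free hemoglobin, was at 81.9, 83.6 and 209 TPM in WT and at 18.6, 48.8 and 8.95 TPM in C5aR-/- TAMs (-2.41, SE 0.63, limma adjusted p = 0.186). Lcn2, lipocalin 2, which withholds iron by binding bacterial siderophores, was at 45.7, 76.0 and 117 TPM in WT and at 20.1, 20.6 and 5.20 TPM in C5aR-/- TAMs (-2.41, SE 0.56, limma adjusted p = 0.156). Ltf, lactoferrin, an iron-binding protein of neutrophil granules, was at 24.4, 38.1 and 7.77 TPM in WT and at 3.93, 8.44 and 0.35 TPM in C5aR-/- TAMs, where the groups overlapped (-2.37, SE 0.82, limma adjusted p = 0.279). Haptoglobin, lipocalin 2 and lactoferrin are stored in neutrophil granules, and 4 of the 6 neutrophil markers tested were called lower and none higher in the same libraries (S100a9, 401 to 1409 TPM in WT and 10.7 to 216 TPM in C5aR-/-). In C5aR-/- TAM 1, 2 and 3 the neutrophil sums were 217, 411 and 27.6 TPM, and Hp, Lcn2 and Ltf had the same order. In WT TAM 1, 2 and 3 the sums were 1031, 2449 and 628 TPM, and Ltf had the same order, while Hp and Lcn2 were highest in WT TAM 3. Of 5 mesothelial markers, Upk3b, Lrrn4 and Upk1b were called lower, Wt1 differed by -0.10, and Msln was higher in every C5aR-/- library (0.88, limma adjusted p = 0.0922), with sums of 918 to 1254 TPM in WT and 711 to 966 TPM in C5aR-/-. Of 5 mast cell markers tested, Cpa3, Mcpt4, Tpsb2 and Fcer1a were called lower (-3.89 to -1.85) and Kit higher (1.13). Cpa3 was at 11.8 to 26.7 TPM in WT, highest in WT TAM 3, and at 1.59 TPM or less in C5aR-/- libraries. The part of neutrophil, mesothelial or mast cell RNA in these 3 differences was not tested.

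Flvcr2, a membrane transporter first described as a heme importer, was at 6.97, 10.9 and 6.17 TPM in WT and at 2.18, 3.94 and 1.33 TPM in C5aR-/- TAMs, with no overlap (-1.41, SE 0.35, limma adjusted p = 0.17). The Ltf call was lost without WT TAM 1, WT TAM 2 or C5aR-/- TAM 3 (limma unadjusted p = 0.0706, 0.082 and 0.0545). The Flvcr2 call was lost with the macrophage index subtracted (unadjusted p = 0.0543). Without C5aR-/- TAM 1 the number of calls in the list was 8, and calls over all genes also went up, from 733 of 14776 to 1220 of 14458. Without C5aR-/- TAM 2 there were 6 in the list and 706 of 14457 over all genes.

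**Figure D5:**
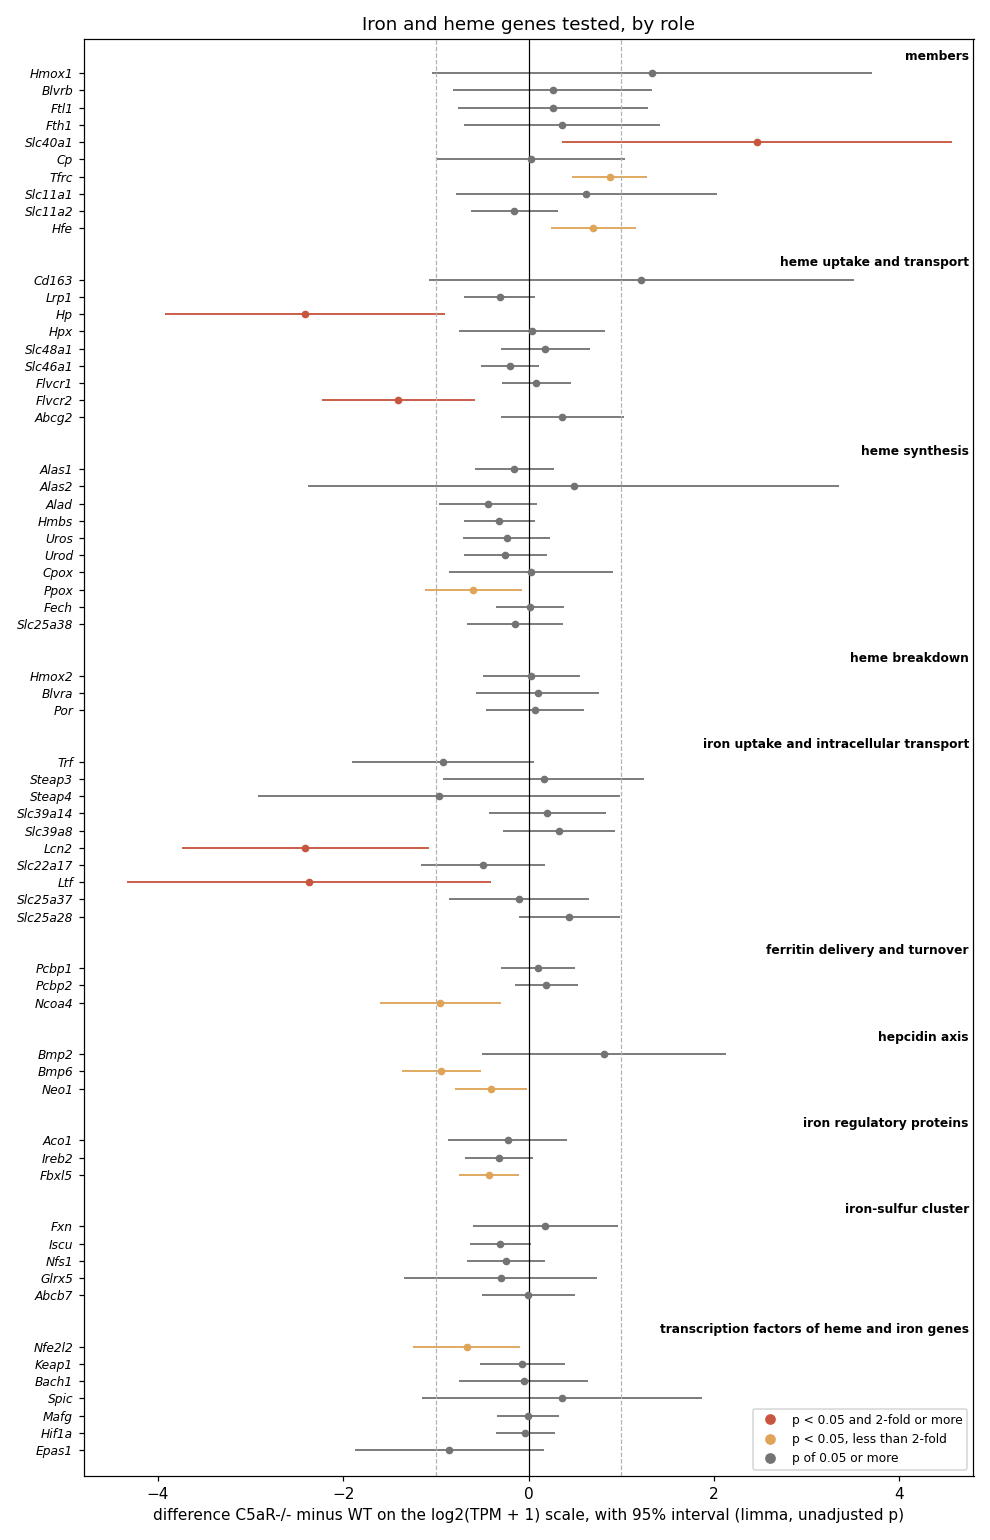
Difference between C5aR-/- and WT TAMs with its 95% interval (limma, log2(TPM + 1) scale) for the 10 members and the 53 tested genes of the list, by role; dashed lines mark 2-fold and colors the unadjusted p. Slc40a1 is the called gene to the right of 0, and Hp, Flvcr2, Lcn2 and Ltf are the called genes to the left.

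By role, the list held 2 called genes of 9 in heme uptake and transport and 2 of 10 in iron uptake and intracellular transport. None was called among the tested genes of the other roles. These were 10 of heme synthesis, 3 of heme breakdown, 3 of ferritin delivery and turnover and 3 of the hepcidin axis. The rest were 3 in the iron regulatory protein role (Aco1, Ireb2 and the regulator Fbxl5), 5 of iron-sulfur cluster assembly and 7 transcription factors. The most abundant gene of each role gives the level at which the role was seen. Trf, transferrin, the plasma iron carrier, was the highest, at 1625, 1286 and 1342 TPM in WT and at 1050, 1042 and 374 TPM in C5aR-/- TAMs (-0.92, 95% interval -1.91 to 0.06, limma adjusted p = 0.37). It passed the rule without C5aR-/- TAM 1 (-1.17, limma unadjusted p = 0.0309) or C5aR-/- TAM 2 (-1.17, unadjusted p = 0.043), whereas without C5aR-/- TAM 3 it differed by -0.43 (unadjusted p = 0.0512).

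The others among the most abundant moved by less. Nfe2l2 encodes NRF2, an activator of Hmox1, ferritin and Slc40a1. It was at 189, 197 and 197 TPM in WT and at 172, 121 and 86.5 TPM in C5aR-/- TAMs, with no overlap (-0.67, limma adjusted p = 0.296). Fbxl5, an iron-sensing ubiquitin ligase subunit that removes iron regulatory protein 2, was at 55.6 to 69.6 TPM in WT and at 43.9 to 49.1 TPM in C5aR-/- TAMs (-0.43, limma adjusted p = 0.245). Neo1, neogenin, a hemojuvelin partner, was at 41.5 to 56.9 TPM in WT and at 33.2 to 38.8 TPM in C5aR-/- TAMs (-0.40, limma adjusted p = 0.33). For Lrp1 (-0.31), Alad (-0.44), Por (0.07), Pcbp2 (0.19) and Iscu (-0.30), the unadjusted p was 0.0647 or higher.

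Of the genes with p below 0.05 but under 2-fold, 3 more were looked at after their values were seen. Ncoa4, the receptor that brings ferritin to autophagosomes to free its iron, was at 199 to 264 TPM in WT and at 75.8 to 151 TPM in C5aR-/- TAMs (-0.95, SE 0.27, limma adjusted p = 0.216). Bmp6, the signal by which iron raises hepcidin in liver, was at 17.5 to 25.1 TPM in WT and at 9.79 to 10.6 TPM in C5aR-/- TAMs (-0.94, SE 0.18, limma adjusted p = 0.111). Ppox, the enzyme before ferrochelatase in heme synthesis, was at 35.1 to 56.8 TPM in WT and at 23.7 to 32.8 TPM in C5aR-/- TAMs (-0.60, limma adjusted p = 0.297). None of the 3 pairs of ranges overlapped. Ncoa4 was called without WT TAM 2, C5aR-/- TAM 1 or C5aR-/- TAM 2, and Bmp6 without WT TAM 1. Hepcidin itself (Hamp) and mitochondrial ferritin (Ftmt) were listed at 0 in all 6 libraries.

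Genes tied to red cell iron showed how far 1 library could differ. Alas2, the erythroid enzyme that starts heme synthesis, was at 95.3 TPM in C5aR-/- TAM 1 and at 3.06 to 22.4 TPM in the others. Spic, the transcription factor of iron-recycling macrophages, was at 11.7 TPM in C5aR-/- TAM 1 and at 1.14 to 3.90 TPM elsewhere. Cd163, the macrophage receptor for hemoglobin bound to haptoglobin, was at 9.14, 2.62 and 0.75 TPM in WT and at 27.2, 9.42 and 1.72 TPM in C5aR-/- TAMs (1.21, 95% interval -1.08 to 3.51, limma adjusted p = 0.608), and it was called without C5aR-/- TAM 3. These 3 genes were also chosen after their values were seen.

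The genes whose profile over the 6 libraries was most like that of a member were found by the root mean square distance between log2(TPM + 1) values, each centered on its own mean. For Hmox1 they were Ighv8-12 (distance 0.20), Mrc1 (0.21) and Ighv1-9 (0.28). Mrc1 encodes the mannose receptor CD206 and was at 30.3, 14.9 and 3.34 TPM in WT and at 97.9, 33.2 and 12.3 TPM in C5aR-/- TAMs. Both immunoglobulin segments reached 0 in WT TAM 3. For Slc40a1 the nearest were Gpnmb (0.36), Ms4a4a (0.55) and Gpx3 (0.55). Gpnmb, a glycoprotein of macrophages and melanocytes, was at 2.14, 1.74 and 0.73 TPM in WT and at 72.5, 5.76 and 2.29 TPM in C5aR-/- TAMs. For Tfrc the nearest were Gm37240 (0.08), AC113003.1 (0.09) and Fez2 (0.11). The smaller distances of the Tfrc set go with its smaller range, and with 6 libraries such likeness is a description.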

How the data were processed

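RNA from sorted TAMs was sequenced by the authors as strand-marked poly(A) libraries. Per the labels, fastp, HISAT2, StringTie, RSEM, DESeq2 and the mm10 build were used. Values were deposited as TPM per Ensembl gene. Which tool made the TPM, and its annotation, are not given in the sources used here. TPM keeps no read depth, so no count model was run. The 2 columns of group means in the deposited table were not used.

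log2(TPM + 1) was fitted with limma 3.58.1 (R 4.3.3, eBayes with trend) on 14776 genes with TPM of at least 1 in 3 or more libraries, with Benjamini-Hochberg adjustment over all of them, and the fit was tested on simulated data. Groups came from the sample labels (WT, C5aR-/-). P-values measure the spread between libraries, which may be technical. Ratios were compared by an exact permutation test. Members, lists, markers and motifs were chosen with earlier results of these data known. Named were all members, C5ar1, list genes called or most abundant in their role, and the 3 nearest profiles of Hmox1, Slc40a1 and Tfrc. The other list genes named were chosen after their values were seen. Alternatives changed the pseudocount (0.1), filter, scaling, moderation, replicate block, macrophage index and libraries. Same-numbered WT and C5aR-/- libraries deviated from their group means with correlations of 0.19, -0.01 and 0.27 across genes. Differently numbered libraries had correlations of -0.23 to 0.09. The labels state no pairing, so numbers were not taken as pairs in the main fit, and these correlations do not settle whether they are pairs.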

Additional observations from a re-analysis of the deposited data

How the results depend on the processing

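With 3 libraries per group and TPM in place of counts, small differences in variable genes such as Hmox1 were not detectable, and the intervals of 7 members include 0. The count of called members was 1 with a pseudocount of 0.1, no filter, quantile or median-of-ratios scaling, eBayes without trend, and the macrophage index as covariate or subtracted (the subtraction was chosen after seeing the data). It was 0 at TPM of at least 5, where Slc40a1 was not tested, and 0 to 1 without 1 library. With the replicate block it was 2, Slc40a1 and Hmox1 (1.33, limma unadjusted p = 0.000891, adjusted p = 0.109). The cause was not tested. No member passed an adjusted p of 0.05 and 2-fold in any alternative. The block left both ratios at -0.10 and 2.02. Without 1 library the Ftl1 to Fth1 difference ran from -0.16 to -0.01 and the Slc40a1 to Tfrc difference from 0.97 to 3.09. Called list genes numbered 7 with the covariate, 5 with the block (Cd163 added), 3 with the index subtracted and 4 to 8 without 1 library. Over all genes, 349 passed an adjusted p of 0.05 and 2-fold without C5aR-/- TAM 1, 25 with the covariate and 18 with the index subtracted, against 0 as reported and at most 3 in the other alternatives.

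Signs turned in these cases. Blvrb was -0.054 with the covariate and -0.19 with the index subtracted, and ran from -0.21 (without C5aR-/- TAM 1) to 0.66 without 1 library. Ftl1 was -0.023 and -0.19, and ran from -0.14 (without C5aR-/- TAM 1) to 0.65. Por was -0.040 and -0.38, and ran from -0.18 (without C5aR-/- TAM 1) to 0.23. Fth1 was -0.089 with the index subtracted and ran from -0.10 (without C5aR-/- TAM 1) to 0.75. With the index subtracted Pcbp2 was -0.26 and Cp -0.42, and Cp ran from -0.19 to 0.44 without 1 library, below 0 without WT TAM 1, WT TAM 2, C5aR-/- TAM 2 or C5aR-/- TAM 3. Hmox1, Slc40a1, Tfrc, Slc11a1, Slc11a2 and Hfe kept their sign in every alternative in which they were tested.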
